A study of Mus musculus with 6 samples.

Results

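The genes by which the liver makes, takes up, moves and exports cholesterol, 32 in all, were examined in RNA sequenced from 3 liver libraries labelled CRY1 KO (knockout of Cry1) and 3 wild-type (WT) liver libraries. All 32 are in the deposited table of 15092 genes, matched by symbol, and all 32 passed the filter on low counts that left 13816 genes for testing. They were grouped by role into 3 genes of sterol sensing, 8 of the mevalonate steps, 12 of the sterol steps, 6 of uptake, intracellular transport and esterification, and 3 of export. Every sample is labelled as liver of the C57BL/6J strain, with hepatocyte given for its cell type. They name no knockout allele, sex, age, feeding state or time of day, and do not say that the libraries came from separate mice, so p-values measure the spread between these libraries, which may be in part technical. Every title carries the prefix NC, which the labels do not explain.

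Cholesterol is built from acetyl-CoA through mevalonate to squalene, which is closed into a ring and then trimmed to cholesterol. The enzymes are under common control: when sterols in the endoplasmic reticulum are low, SCAP carries the transcription factor SREBP-2 to the Golgi to be cut and activated, and when sterols are high INSIG proteins hold it back. Surplus cholesterol is esterified, passed to apolipoprotein A-I by ABCA1 or secreted into bile by the paired half-transporters ABCG5 and ABCG8, whose genes are activated by the sterol-sensing LXR receptors. Hepatic cholesterol synthesis has a daily rhythm and depends on feeding, and Cry1 encodes a repressor of the circadian clock.

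Library totals were between 79708703 and 87480152 estimated counts in libraries labelled CRY1 KO and between 83941470 and 91316332 in WT. The level of Cry1 over the whole gene was 6.19 ± 0.88 CPM in libraries labelled CRY1 KO and 6.31 ± 1.32 CPM in WT (SD, n = 3 each; edgeR adjusted p = 0.954), so the knockout label is not checked by it, and a direction given here is that of the labels. CPM is the estimated count divided by the library size in 1e+06 counts, after scaling of that size by TMM (the trimmed mean of M values). The library WT 1 had the highest sums of blood and macrophage markers. The 5 listed red cell genes, all in the table, summed to between 581 and 735 CPM in libraries labelled CRY1 KO and to 2972, 1024 and 654 CPM in WT 1, 2 and 3. The 10 listed Kupffer cell genes, which mark the macrophages of the liver, summed to between 229 and 230.0 CPM in libraries labelled CRY1 KO. They summed to 638, 400.2 and 249 CPM in WT 1, 2 and 3, so every WT library lay above every library labelled CRY1 KO. None of either list was at 0 in every library. The 10 hepatocyte markers, among them albumin, were all detected and summed to between 86334 and 96737 CPM in libraries labelled CRY1 KO and between 77331 and 86170 CPM in WT. The part of these cell markers in the results for cholesterol genes was not tested, and in bulk tissue fewer cells of a type and less RNA per cell cannot be told apart.

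The genes of cholesterol synthesis formed a common pattern over the 6 libraries. They were highest in WT 1, lowest in WT 3, and intermediate and close together in the 3 libraries labelled CRY1 KO. Of the 20 genes of the mevalonate and sterol steps, 19 had their highest level in WT 1, where 20.0% of all tested genes did, and 18 had their lowest in WT 3, where 15.8% of all tested genes did. In 16 of the 20 the full order held, with WT 1 above every library labelled CRY1 KO and both WT 2 and WT 3 below, an order found in 2.08% of tested genes and described here after it was seen. It held in 12 of 12 genes of the sterol steps, 4 of 8 of the mevalonate steps, and 0 of the 12 members with other roles. Summed over the 20 genes, the level was 2043, 2209 and 1958 CPM in CRY1 KO 1, 2 and 3, against 4195, 1436 and 1198 CPM in WT 1, 2 and 3. Without Hmgcs1, the member with the highest count in any library, the other 19 genes still summed to between 1808 and 2013 CPM in libraries labelled CRY1 KO, against 3417, 1315 and 1072 CPM in WT 1, 2 and 3.

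**Figure D1:**
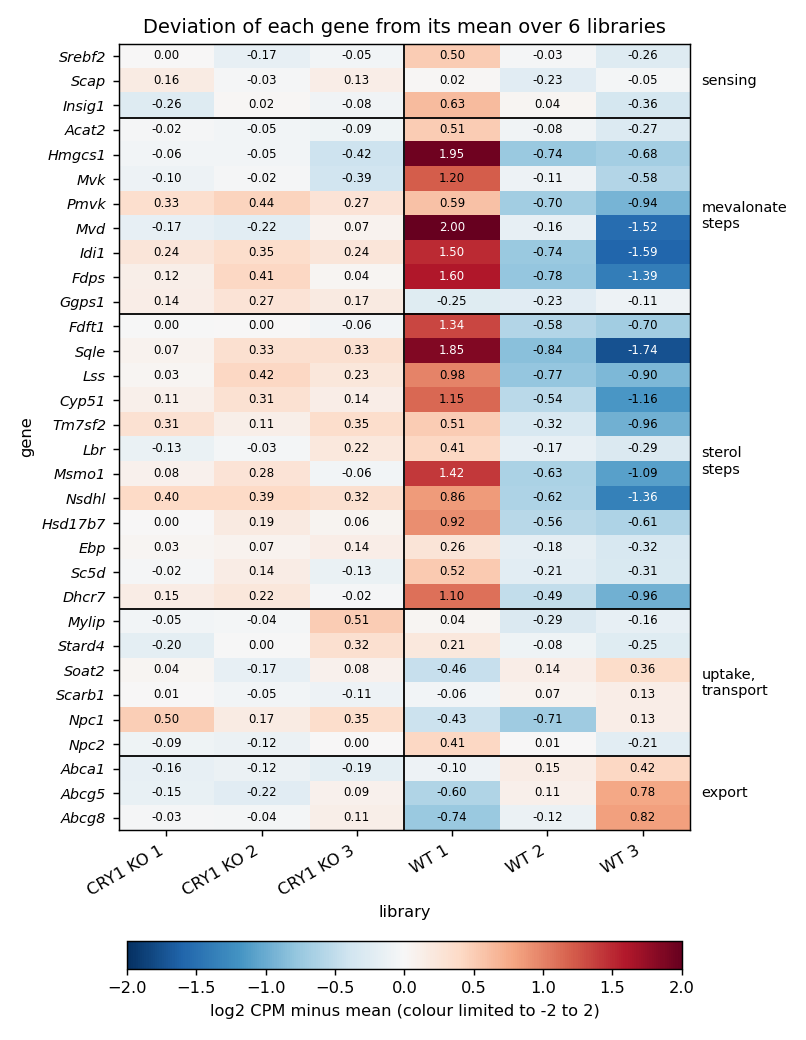
Heat map of the 32 genes (rows, by role) in the 6 libraries (columns), where each cell is the log2 CPM of the gene in that library minus its mean over the 6. In WT 1 the genes of the mevalonate and sterol steps were above their mean (1.95 for Hmgcs1), except Ggps1 (-0.25). In WT 3 the genes of these steps were below it (-1.74 for Sqle), while the CRY1 KO columns lie near 0.

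With all 6 libraries, 0 of the 32 genes differed between libraries labelled CRY1 KO and WT past the threshold (edgeR quasi-likelihood test, adjusted p under 0.05), where 1.70% of tested genes did. At an unadjusted p under 0.05 there were 3, Ggps1, Npc1 and Abca1, where 20.7% of tested genes reached it, and the same 3 were the only members whose groups did not overlap, where 27.3% of tested genes did not overlap. DESeq2 called 2 of the members, Ggps1 and Npc1 (10.9% of the genes it tested). The median log2 difference from edgeR, CRY1 KO minus WT, was -0.18 for the mevalonate steps and -0.01 for the sterol steps, beside -0.02 over all tested genes. These signs were not stable, since the medians were 0.14 and 0.22 in limma on log2 CPM. With the replicate number as a block they were 0.14 and 0.24. Of the 20 synthesis genes 8 had positive and 12 negative differences in the edgeR fit with all libraries.

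That count rested on WT 1. Without it, 12 of the 32 genes were higher in libraries labelled CRY1 KO past the edgeR threshold and 0 were lower, where 4.04% of tested genes passed (2.57% higher and 1.47% lower). All 12 encode enzymes of synthesis: Pmvk, Idi1 and Fdps of the mevalonate steps, and Fdft1, Sqle, Lss, Cyp51, Tm7sf2, Msmo1, Nsdhl, Hsd17b7 and Dhcr7 of the sterol steps. All 20 synthesis genes then had positive differences, with a median of 0.57 for the mevalonate and 0.85 for the sterol steps, beside -0.01 over all tested genes. In 17 of the 20, every library labelled CRY1 KO lay above both WT 2 and WT 3, as in 20.4% of tested genes. DESeq2 without WT 1, a fit added after the data were seen, called 16 members, 14 higher and 2 lower in libraries labelled CRY1 KO. The 2 lower were the export genes Abca1 and Abcg5. It called 11.7% of tested genes, beside 4.04% with edgeR. Each fit without WT 1 sets 3 libraries against 2. Every library was left out in turn, but WT 1 is stressed here because these same genes were seen to peak in it. The calls, signs and p-values without WT 1, here and below, partly restate the order described above and are not separate evidence for a difference. Without WT 3 in place of WT 1, 15 of the 20 synthesis genes had negative differences, and 0 of them passed. The medians of the mevalonate and sterol steps were then -0.57 and -0.24, and they were -0.48 and -0.20 without WT 2. Among the WT libraries, only leaving out WT 1 made both medians positive.

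**Figure D2:**
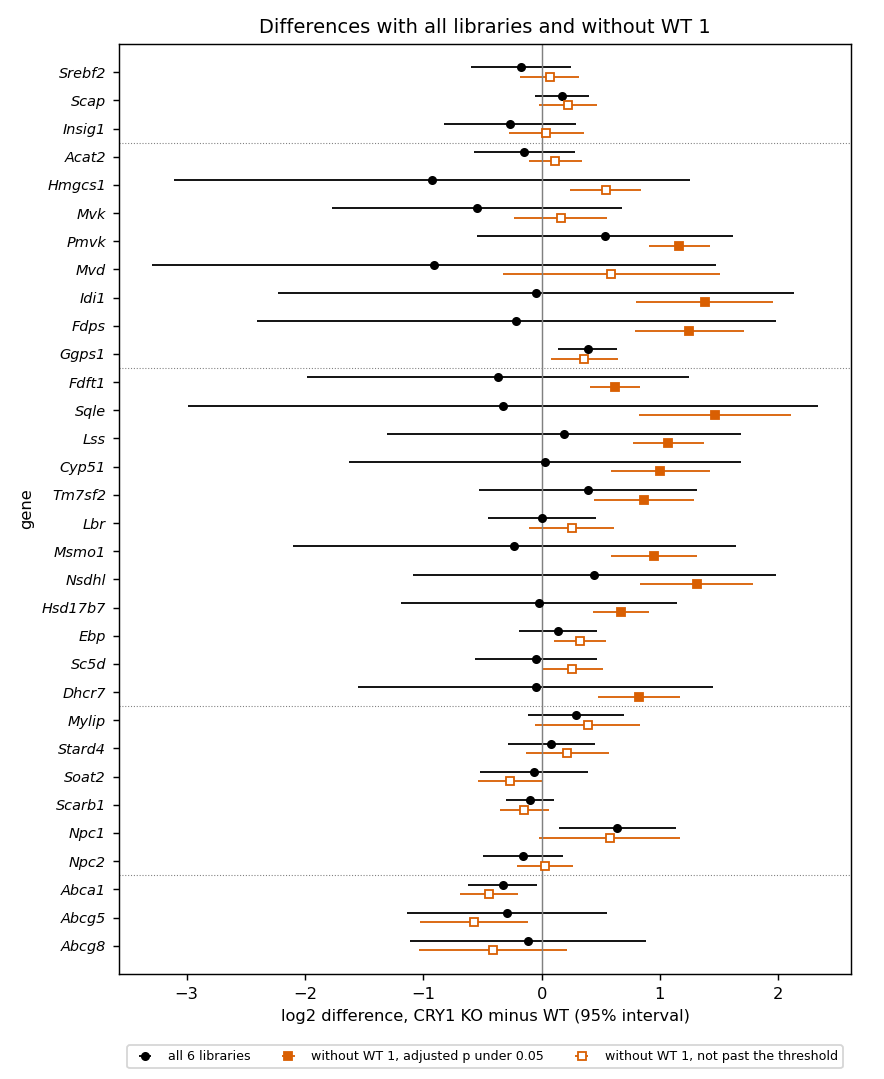
Log2 difference, CRY1 KO minus WT, of each of the 32 genes with its 95% interval from edgeR, with all 6 libraries (black circles) and without WT 1 (orange squares, filled where the adjusted p is under 0.05). With all libraries the intervals of 19 of the 20 synthesis genes, Ggps1 being the exception, span 0, as for Sqle from -2.99 to 2.34, and 12 genes lie to the right and filled without WT 1.

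The 3 genes of sterol sensing spanned 0.39 to 0.99 on the log2 scale over the 6 libraries, where the 20 synthesis genes spanned 0.52 to 3.58. Srebf2, which encodes SREBP-2, stood at 45.1, 40.0 and 43.3 CPM in CRY1 KO 1, 2 and 3, against 63.6, 44.0 and 37.6 CPM in WT 1, 2 and 3. Insig1, which encodes an INSIG retention protein and is itself a target of SREBPs, stood at 182, 221 and 207 CPM in CRY1 KO 1, 2 and 3, against 338, 224 and 170.4 CPM in WT 1, 2 and 3. Both were highest in WT 1 and lowest in WT 3, and the groups overlapped. Scap, the escort of SREBP-2, stood at 137, 119.8 and 134 CPM in CRY1 KO 1, 2 and 3, against 124, 104 and 119 CPM in WT 1, 2 and 3, without the WT 1 peak. Their log2 differences were -0.18 (95% interval -0.60 to 0.25) for Srebf2, -0.27 (-0.83 to 0.29) for Insig1 and 0.17 (-0.05 to 0.40) for Scap. Without WT 1 they were 0.07, 0.04 and 0.23, and none passed.

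In the mevalonate steps, the widest ranges belonged to Mvd, Idi1, Fdps and Hmgcs1. Hmgcs1 encodes the cytosolic HMG-CoA synthase at the entry of the pathway. It stood at 193, 195 and 151 CPM in CRY1 KO 1, 2 and 3, against 777, 121 and 126 CPM in WT 1, 2 and 3. Every library labelled CRY1 KO thus lay above WT 2 and WT 3, and WT 1 was 3.99-fold above the highest of the other 5. Its log2 difference was -0.93 (SE 0.84, edgeR adjusted p = 0.584) with all libraries and 0.54 (SE 0.13, adjusted p = 0.0598) without WT 1, which missed the edgeR threshold, while DESeq2 without WT 1 called it (adjusted p = 0.00323).

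Mvd, the mevalonate diphosphate decarboxylase gene, stood at 9.04, 8.77 and 10.7 CPM in CRY1 KO 1, 2 and 3, against 40.9, 9.09 and 3.55 CPM in WT 1, 2 and 3. WT 1 was 11.5-fold above WT 3, and WT 2 lay among the libraries labelled CRY1 KO. Idi1, the isopentenyl diphosphate isomerase gene, stood at 115, 124 and 115 CPM in CRY1 KO 1, 2 and 3, against 274, 58.3 and 32.2 CPM in WT 1, 2 and 3. Fdps, which encodes farnesyl diphosphate synthase, stood at 155, 189.5 and 147 CPM in CRY1 KO 1, 2 and 3, against 432, 83.3 and 54.7 CPM in WT 1, 2 and 3. In both the libraries labelled CRY1 KO lay between WT 1 and the other WT libraries. Without WT 1, Idi1 was 2.60-fold higher (log2 1.38, SE 0.24, edgeR adjusted p = 0.0329) and Fdps 2.38-fold higher (log2 1.25, SE 0.20, adjusted p = 0.0181) in libraries labelled CRY1 KO.

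Pmvk, the phosphomevalonate kinase gene, had a smaller WT 1 peak. It stood at 61.3, 66.2 and 58.8 CPM in CRY1 KO 1, 2 and 3, against 73.3, 29.97 and 25.4 CPM in WT 1, 2 and 3, so that the libraries labelled CRY1 KO lay closer to WT 1 than to the others. It had the smallest adjusted p of the members without WT 1 (2.24-fold higher, log2 1.16, SE 0.11, edgeR adjusted p = 0.00215). Mvk, the mevalonate kinase gene, stood at 15.1, 15.9 and 12.4 CPM in CRY1 KO 1, 2 and 3, against 37.3, 15.03 and 10.8 CPM in WT 1, 2 and 3. Apart from WT 1 its groups overlapped, and its difference without WT 1 was 0.16 (SE 0.17). Acat2, the cytosolic acetoacetyl-CoA thiolase gene, ranged from 87.4 to 92.0 CPM in libraries labelled CRY1 KO and from 77.4 to 132 CPM in WT.

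Ggps1, which encodes geranylgeranyl diphosphate synthase and so leads off the sterol branch, was the exception among the mevalonate steps. It stood at 10.8, 11.9 and 11.1 CPM in CRY1 KO 1, 2 and 3, against 8.27, 8.39 and 9.11 CPM in WT 1, 2 and 3. Every library labelled CRY1 KO lay above every WT library, and WT 1 was the lowest. The difference was log2 0.39 (SE 0.11), with an edgeR adjusted p of 0.100 and a DESeq2 adjusted p of 0.0259. Without WT 1 it was 0.36, and the DESeq2 call was lost (adjusted p = 0.0698; edgeR adjusted p = 0.147).

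**Figure D3:**
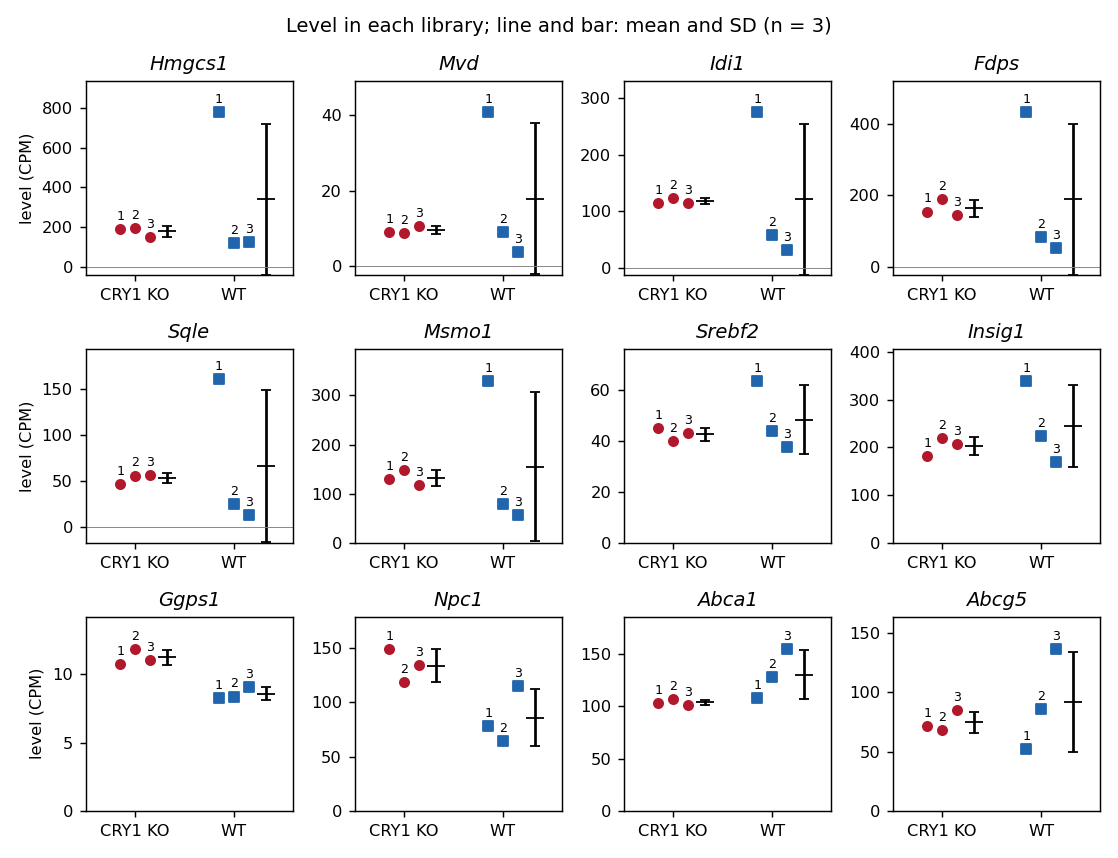
Level in CPM of 12 of the genes in each library (red circles, CRY1 KO 1 to 3; blue squares, WT 1 to 3; numbers give the replicate; line and bar, mean and SD, n = 3). In Hmgcs1, Mvd, Idi1, Fdps, Sqle and Msmo1 a single WT point (WT 1) lies far above all others, while Ggps1 and Npc1 have every CRY1 KO point above every WT point.

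In the sterol steps, all 12 genes were highest in WT 1 and lowest in WT 3. Sqle encodes squalene epoxidase, which commits squalene to the sterol ring and is a control point of the pathway. It stood at 47.2, 56.3 and 56.4 CPM in CRY1 KO 1, 2 and 3, against 162, 25.1 and 13.5 CPM in WT 1, 2 and 3. Its log2 range over the 6 libraries, 3.58, was larger than that of 97.6% of tested genes and the widest of the members. Msmo1, the methylsterol monooxygenase gene, stood at 129.9, 149 and 118 CPM in CRY1 KO 1, 2 and 3, against 328, 79.1 and 57.9 CPM in WT 1, 2 and 3. Nsdhl, which acts with it in removing the methyl groups at carbon C4, stood at 80.1, 79.7 and 75.9 CPM in CRY1 KO 1, 2 and 3, against 109.8, 39.6 and 23.7 CPM in WT 1, 2 and 3. For each of these 3 genes, the groups overlapped only through WT 1. Without it, Sqle was 2.76-fold (log2 1.47, SE 0.27, edgeR adjusted p = 0.0381), Nsdhl 2.48-fold (1.31, SE 0.20, adjusted p = 0.0172) and Msmo1 1.93-fold higher (0.95, SE 0.16, adjusted p = 0.0175) in libraries labelled CRY1 KO.

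Tm7sf2 encodes a sterol C14 reductase, a reaction that the lamin B receptor gene Lbr also serves. Tm7sf2 stood at 105, 91.5 and 107 CPM in CRY1 KO 1, 2 and 3, against 121, 67.5 and 43.6 CPM in WT 1, 2 and 3. Lbr ranged from 7.23 to 9.23 CPM in libraries labelled CRY1 KO and from 6.49 to 10.6 CPM in WT. Both kept the order of the other sterol genes, with a narrower range in Lbr (0.70 on the log2 scale) than in Tm7sf2 (1.47). Ebp, the sterol isomerase gene, stood at 179.9, 184 and 194 CPM in CRY1 KO 1, 2 and 3, against 211, 156 and 141 CPM in WT 1, 2 and 3. Without WT 1, Tm7sf2 was 1.82-fold higher (log2 0.87, SE 0.18, edgeR adjusted p = 0.0451), while Ebp (0.33, adjusted p = 0.102) and Lbr (0.25, adjusted p = 0.393) did not pass with edgeR. DESeq2 without WT 1 called Ebp (adjusted p = 0.0127).

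The other sterol genes repeated the order at different sizes. Fdft1, which encodes squalene synthase, ranged from 88.9 to 92.8 CPM in libraries labelled CRY1 KO, against 235, 61.8 and 57.1 CPM in WT 1, 2 and 3. Lss, the lanosterol synthase gene, ranged from 47.8 to 62.5 CPM in libraries labelled CRY1 KO, against 92.4, 27.3 and 25.0 CPM in WT 1, 2 and 3. The C14 demethylase gene Cyp51 ranged from 124 to 142 CPM in libraries labelled CRY1 KO, against 255, 79.0 and 51.5 CPM in WT 1, 2 and 3. In each, the CRY1 KO range lay between WT 1 and the pair WT 2 and WT 3. Dhcr7, which encodes the reductase that forms cholesterol from 7-dehydrocholesterol, ranged from 67.4 to 79.5 CPM in libraries labelled CRY1 KO, against 146, 48.6 and 35.1 CPM in WT 1, 2 and 3. Hsd17b7, a ketosteroid reductase gene of the pathway, and Sc5d, the lathosterol desaturase gene, kept the same order, with log2 ranges of 1.53 and 0.83. Without WT 1 the fold in libraries labelled CRY1 KO was 1.54 for Fdft1, 2.102 for Lss, 2.01 for Cyp51, 1.77 for Dhcr7 and 1.59 for Hsd17b7, each past the edgeR threshold, and 1.198 for Sc5d, which did not pass (adjusted p = 0.232).

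The spread between libraries differed between the groups. For the 20 synthesis genes the median SD of log2 CPM was 0.12 over the libraries labelled CRY1 KO and 1.07 over WT, beside 0.15 and 0.20 over all tested genes. The SD was larger in WT in 20 of the 20, where it was larger in WT in 64.1% of tested genes. These genes moved together, with 19 of the 20 highest in WT 1, so the count is not 20 separate measures of spread. Nsdhl had an SD of 0.04 in libraries labelled CRY1 KO and 1.13 in WT, and Idi1 had 0.06 and 1.59. Over the 20 genes the median deviation from the mean of the 6 libraries was 1.04 in WT 1, -0.55 in WT 2 and -0.92 in WT 3. The WT spread thus rests largely on the single library WT 1, though WT 2 and WT 3 differed as well.

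**Figure D4:**
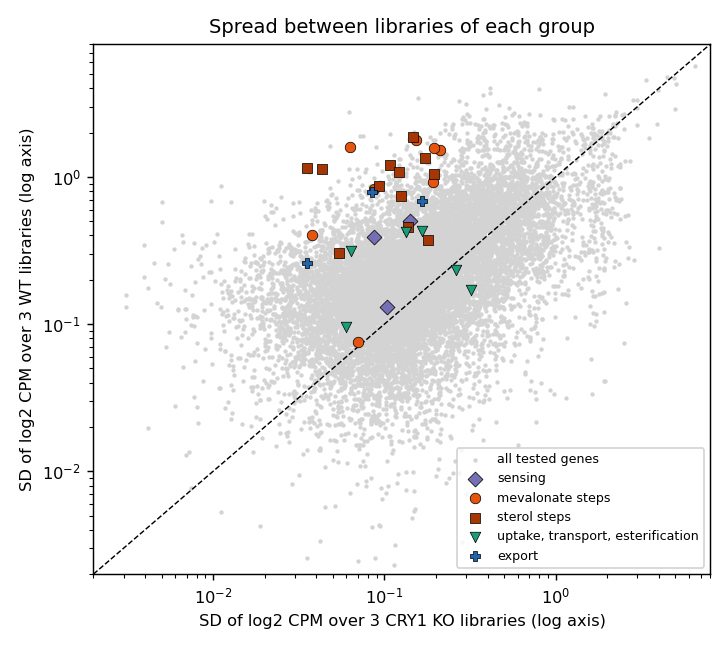
SD of log2 CPM over the 3 libraries labelled CRY1 KO (x axis) and over the 3 WT libraries (y axis), both on log axes, for the 32 genes by role and for all tested genes (grey; 3 fall outside the axes). The 20 genes of the mevalonate and sterol steps lie above the dashed line of equal SD, and most of them near the upper edge of the grey cloud.

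Promoter sequences are given for the synthesis genes that moved together with the widest ranges and were in the sequence table, for Srebf2, and for the export gene Abca1, whose pattern differed. Windows of 300 bases, from 250 before to 50 after the annotated start, were taken from RefSeq (GRCm38.p6, another build than that named for the data) and matched 25 of the 32 genes. The motifs searched on both strands were TCACNCCAC (a sterol regulatory element, bound by SREBPs), CACGTG (the E-box bound by CLOCK and BMAL1) and CCAAT (the box bound by NF-Y, a partner of SREBPs), and TCACNCCA, a shorter form of the first that overlaps it and was added after the sequences were seen. The 250 bases before the start are printed 5′ to 3′ on the gene's strand, with matches to any of these motifs in capitals (CCAAT reads ATTGG on the other strand).
Mvd (chr8:122443423-122443672, minus strand): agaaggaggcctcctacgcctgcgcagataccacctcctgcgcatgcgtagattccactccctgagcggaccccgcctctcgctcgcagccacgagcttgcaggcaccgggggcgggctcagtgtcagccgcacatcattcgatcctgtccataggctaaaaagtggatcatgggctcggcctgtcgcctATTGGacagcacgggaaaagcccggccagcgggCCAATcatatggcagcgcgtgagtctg
Idi1 (chr13:8885356-8885605, plus strand): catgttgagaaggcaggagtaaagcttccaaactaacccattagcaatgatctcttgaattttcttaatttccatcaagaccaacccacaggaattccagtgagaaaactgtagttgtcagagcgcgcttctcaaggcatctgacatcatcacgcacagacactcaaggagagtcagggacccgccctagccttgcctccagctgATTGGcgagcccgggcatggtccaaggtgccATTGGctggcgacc
Hmgcs1 (chr13:119690101-119690350, plus strand): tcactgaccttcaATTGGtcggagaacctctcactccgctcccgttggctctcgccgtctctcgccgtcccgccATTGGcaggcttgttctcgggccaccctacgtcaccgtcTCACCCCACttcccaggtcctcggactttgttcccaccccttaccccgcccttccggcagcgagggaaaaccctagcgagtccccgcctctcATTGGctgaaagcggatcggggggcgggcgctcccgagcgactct
Msmo1 (chr8:64733579-64733828, minus strand): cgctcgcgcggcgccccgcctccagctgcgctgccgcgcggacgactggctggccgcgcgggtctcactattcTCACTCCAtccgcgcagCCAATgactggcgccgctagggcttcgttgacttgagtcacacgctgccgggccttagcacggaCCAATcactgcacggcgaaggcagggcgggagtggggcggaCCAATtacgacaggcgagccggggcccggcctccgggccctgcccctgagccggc
Srebf2 (chr15:82147019-82147268, plus strand): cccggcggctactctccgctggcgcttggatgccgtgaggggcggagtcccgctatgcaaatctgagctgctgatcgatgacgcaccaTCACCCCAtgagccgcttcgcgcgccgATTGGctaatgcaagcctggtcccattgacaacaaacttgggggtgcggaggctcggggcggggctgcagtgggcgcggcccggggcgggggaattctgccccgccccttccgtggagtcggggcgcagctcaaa
Abca1 (chr4:53159896-53160145, minus strand): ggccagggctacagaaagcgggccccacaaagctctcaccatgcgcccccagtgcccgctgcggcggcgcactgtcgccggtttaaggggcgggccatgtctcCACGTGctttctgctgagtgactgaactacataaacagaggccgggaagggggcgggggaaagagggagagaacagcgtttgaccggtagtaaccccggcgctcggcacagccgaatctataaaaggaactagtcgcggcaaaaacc
In these windows Hmgcs1 held the full TCACNCCAC motif 137 bases before its start and 4 CCAAT boxes, of which 1 lies after the start and is not printed. Over all windows 1 of 25 members held TCACNCCAC, beside 1.49% of tested genes with a window, and 3 of 25 (Hmgcs1, Msmo1 and Srebf2) held TCACNCCA, beside 4.62%. CCAAT was found in 22 of 25 members, 16 of them among the 17 synthesis genes with a window, beside 42.9% of tested genes. CACGTG was found in 6 of 25 (Scap, Insig1, Hsd17b7, Sc5d, Dhcr7 and Abca1), beside 11.2%. These matches describe the letters of the windows and are not measured binding sites.

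Among the genes of uptake, intracellular transport and esterification, Npc1 stood out. It encodes the lysosomal membrane protein that lets cholesterol taken up with lipoproteins leave the lysosome. It stood at 149, 118 and 134 CPM in CRY1 KO 1, 2 and 3, against 78.3, 64.3 and 115 CPM in WT 1, 2 and 3. Every library labelled CRY1 KO lay above every WT library, with a narrow gap between CRY1 KO 2 and WT 3. Its log2 difference was 0.64 (SE 0.21, 95% interval 0.14 to 1.13), with an edgeR adjusted p of 0.154 and a DESeq2 adjusted p of 0.0242. Without WT 3 the difference was 0.91 and passed the edgeR threshold (adjusted p = 0.0153), where 6.04% of tested genes did. It was 0.58 without WT 1 (edgeR adjusted p = 0.251), where the DESeq2 call was also lost (adjusted p = 0.0848), and 0.47 without WT 2 (edgeR adjusted p = 0.322). Npc2, its soluble partner in the lysosome, did not follow it. Npc2 ranged from 48.6 to 52.9 CPM in libraries labelled CRY1 KO, and stood at 69.9, 53.0 and 45.7 CPM in WT 1, 2 and 3 (log2 -0.16, 95% interval -0.50 to 0.18).

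Mylip encodes the ubiquitin ligase IDOL, which marks lipoprotein receptors for degradation. It stood at 9.43, 9.49 and 13.9 CPM in CRY1 KO 1, 2 and 3, against 10.1, 7.97 and 8.74 CPM in WT 1, 2 and 3. Scarb1, the gene of the receptor SR-BI for high-density lipoprotein, stood at 165, 158 and 152 CPM in CRY1 KO 1, 2 and 3, against 157, 171 and 179 CPM in WT 1, 2 and 3. The groups overlapped in both, and Scarb1 had the narrowest range of the members (0.24 on the log2 scale). Its interval ran from -0.30 to 0.11, and that of Mylip from -0.11 to 0.70. Stard4, a sterol transfer protein gene, ranged from 75.1 to 107 CPM in libraries labelled CRY1 KO and from 72.5 to 99.7 CPM in WT. Soat2, which encodes the enzyme that esterifies cholesterol for lipoproteins and is also called ACAT2, though not a product of the thiolase gene above, ran against the synthesis genes. It ranged from 29.1 to 34.6 CPM in libraries labelled CRY1 KO and stood at 23.8, 35.9 and 41.9 CPM in WT 1, 2 and 3, so that WT 1 was below and WT 2 and WT 3 above every library labelled CRY1 KO, an order found in 2.19% of tested genes.

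Across the WT libraries the 3 export genes mirrored most of the synthesis genes. Each was highest in WT 3, where 19.6% of tested genes were. Abcg5 stood at 71.5, 68.1 and 84.7 CPM in CRY1 KO 1, 2 and 3, against 52.5, 85.8 and 136 CPM in WT 1, 2 and 3. Abcg8 stood at 111, 109.8 and 122 CPM in CRY1 KO 1, 2 and 3, against 67.8, 104 and 200.3 CPM in WT 1, 2 and 3. Both were lowest in WT 1, where 18.7% of tested genes were. Over the libraries labelled CRY1 KO the SD of log2 CPM was 0.17 for Abcg5 and 0.08 for Abcg8, beside a median of 0.15 over all tested genes. Over WT it was 0.69 and 0.79. The mirrored order of Soat2 also held for Abcg5, but not for Abcg8, in which WT 2 lay below the libraries labelled CRY1 KO. Abca1 stood at 103, 106 and 101 CPM in CRY1 KO 1, 2 and 3, against 108, 128 and 155 CPM in WT 1, 2 and 3. Every library labelled CRY1 KO lay below every WT library, WT 1 by a small margin.

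With all libraries the export genes had log2 differences of -0.33 (SE 0.13, edgeR adjusted p = 0.200) for Abca1, -0.29 (SE 0.34) for Abcg5 and -0.12 (SE 0.40) for Abcg8. Without WT 1 these were -0.45 (adjusted p = 0.0575), -0.57 (adjusted p = 0.153) and -0.41 (adjusted p = 0.418), and none passed with edgeR. In Abca1 and Abcg5 every library labelled CRY1 KO lay below both WT 2 and WT 3, as in 19.8% of tested genes. Without WT 1, DESeq2 called Abca1 (adjusted p = 0.00287) and Abcg5 (adjusted p = 0.0487). Abcg5 and Abcg8 lie head to head and their bodies overlap in the RefSeq annotation, as those of Fdft1 with Ctsb, Tm7sf2 with Vps51 and Npc1 with Rmc1 do. Whether the counting used strand is not given in the sources used here, so the share of reads between such neighbours is uncertain.

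**Figure D5:**
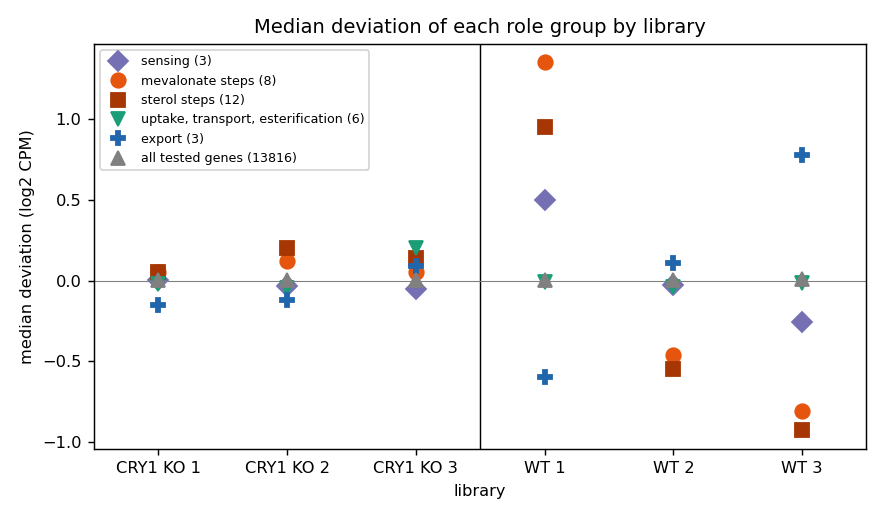
Median deviation of each role group (number of genes in the legend) from the mean of the 6 libraries, in log2 CPM, by library. In WT 1 the mevalonate and sterol steps lie at 1.35 and 0.95 and export at -0.60, in WT 3 they lie at -0.81, -0.93 and 0.78, and the libraries labelled CRY1 KO and the median of all tested genes lie near 0.

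A list of 42 further genes of cholesterol and SREBP biology, all tested, had 1 gene past the edgeR threshold with all libraries, higher in libraries labelled CRY1 KO, beside 1.70% of tested genes. This was Stard5, which encodes a sterol-binding transfer protein. It stood at 115, 117 and 106 CPM in CRY1 KO 1, 2 and 3, against 84.8, 74.3 and 79.6 CPM in WT 1, 2 and 3 (log2 0.50, SE 0.09, edgeR adjusted p = 0.0384). The groups did not overlap, and the difference was 0.55 without WT 1 (edgeR adjusted p = 0.0211). The call was lost without WT 2 (edgeR adjusted p = 0.167) and when any single library labelled CRY1 KO was left out. It was also lost with the replicate block and with library totals only. Among the next genes by p were the fatty acid desaturase genes Fads2 (log2 0.64, adjusted p = 0.0545) and Fads1 (0.41, adjusted p = 0.117), each with every library labelled CRY1 KO above every WT library.

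Fads2 stood at 566, 526 and 659 CPM in CRY1 KO 1, 2 and 3, against 436, 324 and 363 CPM in WT 1, 2 and 3. Fads1 stood at 411, 378 and 459 CPM in CRY1 KO 1, 2 and 3, against 363, 289 and 285 CPM in WT 1, 2 and 3. In both, WT 1 was the highest WT library but lay below every library labelled CRY1 KO, unlike the synthesis enzymes that peaked in WT 1.

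Without WT 1, 6 genes of that list were higher and 1 lower in libraries labelled CRY1 KO (edgeR), where 2.57% of tested genes were higher and 1.47% lower. The 6 were Stard5, Fads1, Fads2, the acetyl-CoA suppliers Acly (log2 0.83) and Acss2 (1.13), and Tmem97 (0.59), which encodes a sterol-responsive membrane protein. The last 3 also had the order of the synthesis genes over the 6 libraries, the only genes of the 42 that did, where 2.08% of tested genes had it. The gene that was lower was Srebf1, whose products SREBP-1a and SREBP-1c drive fatty acid synthesis. Srebf1 was chosen for description after its values were seen. It stood at 92.5, 98.2 and 118 CPM in CRY1 KO 1, 2 and 3, against 97.0, 248 and 290.1 CPM in WT 1, 2 and 3, so WT 1 lay among the libraries labelled CRY1 KO. Its log2 difference was -1.04 (SE 0.41, edgeR adjusted p = 0.240; DESeq2 adjusted p = 0.013) with all libraries and -1.39 (SE 0.13, adjusted p = 0.00166) without WT 1. In the same liver libraries Srebf2 thus had its highest level in WT 1, while Srebf1 was lower in WT 1 than in WT 2 and WT 3.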

How the data were processed

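The deposited values are whole numbers per gene and were taken here as estimated counts, since low values bunch above 1. Named in the submitters' processing notes are limma 3.42.2, StringTie 2.1.7, HISAT2 2.2.1, Trim Galore 0.6.7 and the build GRCm39 (mm39), with no order or settings, and the step that made the values was not given in the sources used here. Groups and replicate numbers came from the titles. Genes were filtered (filterByExpr of edgeR 4.0.16, minimum count 10 and minimum total 15), scaled by TMM and compared by edgeR's quasi-likelihood test, fitted robustly, with p-values adjusted by Benjamini-Hochberg over 13816 genes (threshold 0.05). Differences are log2, CRY1 KO minus WT, with SE from the F statistic and 95% intervals from its degrees of freedom. Log2 CPM used a prior count of 2. The lowest estimated count of a member in any library was 340 (Mvd). Alternatives were DESeq2 1.42.0, limma 3.58.1 on log2 CPM, other scalings, no filter, the replicate number as a block, each library left out and, added after the data were seen, DESeq2 without WT 1. The fit was tested on simulated counts. Members and lists were chosen with earlier results of these data known. Values by library were due, in each role, for the 3 members with the smallest p, for the 6 members with the widest ranges, and for called and 4 smallest-p genes of the further list. Other members were shown so after their values were seen. A gene of the further list that this rule takes is not reported here.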

Additional observations from a re-analysis of the deposited data

How the results depend on the processing

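The count of members past the threshold was 0 in the edgeR test with TMM, RLE and no scaling, without the filter on low values, in limma and with the replicate block, and 2 in DESeq2. Leaving out single libraries gave 0 to 12, and DESeq2 without WT 1 gave 16. Over all genes the count was 235 with all libraries, 113 with library totals only, 1322 in DESeq2, 1486 in DESeq2 without WT 1, and 17 to 844 with single libraries left out. For the 42 further genes it was 1, against 0 with library totals only, 6 in DESeq2, 2 in limma, 11 in DESeq2 without WT 1 and 0 to 7 with single libraries left out. With the replicate number as a block, 94 genes passed in all, with 0 of the members and 0 of the further genes. The numbers share no deviation (correlations of -0.07, -0.01 and 0.07 for replicates 1, 2 and 3), and CRY1 KO 1 correlated best with WT 2, so the block pairs libraries by number only. The median difference ran from -0.24 to 0.85 for sterol steps, from -0.063 to 0.12 for transport, from -0.57 to 0.57 for mevalonate steps, from -0.33 to 0.07 for sensing and from -0.45 to 0.11 for export with single libraries left out.

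The sign of 7 genes changed with limma and with the block. In limma the log2 differences were 0.55 for Idi1, 0.38 for Fdps, 0.48 for Sqle, 0.20 for Msmo1, 0.17 for Hsd17b7, 0.23 for Dhcr7 and 0.027 for Abcg8. With the replicate block they were 0.60, 0.44, 0.57, 0.24, 0.18, 0.25 and 0.027 in the same order. The cause was not tested. With single libraries left out, 22 of 37 genes changed sign at least once, 15 of them without WT 1. The range was -0.33 to 0.069 for Srebf2, -0.47 to 0.041 for Insig1, -1.33 to 0.54 for Hmgcs1, -0.86 to 0.16 for Mvk, -1.39 to 0.59 for Mvd, -0.50 to 1.38 for Idi1, -0.65 to 1.25 for Fdps and -0.30 to 0.12 for Acat2. It was -0.70 to 0.62 for Fdft1, -0.81 to 1.47 for Sqle, -0.12 to 1.07 for Lss, -0.35 to 1.005 for Cyp51, -0.13 to 0.25 for Lbr, -0.62 to 0.95 for Msmo1, -0.28 to 0.67 for Hsd17b7, -0.20 to 0.26 for Sc5d and -0.39 to 0.83 for Dhcr7. It was -0.065 to 0.22 for Stard4, -0.26 to 0.12 for Soat2, -0.57 to 0.11 for Abcg5, -0.41 to 0.41 for Abcg8 and -0.29 to 0.029 for Npc2. The number of members highest in WT 1 was 22, and library totals only moved the numbers highest in CRY1 KO 1, 2 and 3 to 1, 0 and 6.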
